A study of Mus musculus with 24 samples.

Results

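The 9 genes described here belong to the NF-kB pathway: the transcription factor subunits Nfkb1, Nfkb2, Rela and Relb, and 5 genes of the inhibitors, cofactors and ubiquitin enzymes that act on them, Nfkbia, Nfkbiz, Bcl3, Tnfaip3 and Birc3. They were chosen by name, as the rows of these symbols in a table of read counts per gene. All 9 members were found among 55421 mouse gene identifiers, and all 9 passed the filter on low counts, as did 18046 genes in all. Their counts were 70 to 3752 in a library.

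Type 2 alveolar epithelial cells (AEC2s), the surfactant-producing progenitors of the lung alveolus, were isolated from Krt8+/+ mice (WT in the labels) and from Krt8-/- mice (KO), which lack keratin 8 in every tissue. RNA was taken from freshly isolated cells (D0) and from cells on day 1, day 3 or day 7 of 2D culture on a stiff surface coated with laminin (D1, D3 and D7), a culture in which AEC2s pass into a keratin-rich transitional state and then toward type 1 cells. Each of the 8 groups held 3 libraries, whose labels end in 3 dates that both genotypes and all days shared. The labels do not say what a date marks, and the dates are read here as isolations 1, 2 and 3. No drug or injury was applied in any group, and neither the labels nor the methods give the strain, the age or any pooling of the mice.

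NF-kB is a family of dimeric transcription factors that inhibitor proteins hold in the cytoplasm until receptors for TNF, IL-1 or microbial products trigger their release. In the canonical arm, Nfkbia is degraded and dimers of Rela with the product of Nfkb1 enter the nucleus, whereas in the noncanonical arm the precursor encoded by Nfkb2 is processed and pairs with Relb. Several targets of the pathway feed back on it, among them Nfkbia and Tnfaip3, and in the alveolar epithelium the pathway is known for driving chemokine and antimicrobial genes.

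The start regions of 4 members are shown because they hold matches to the NF-kB consensus and because these genes moved in opposite directions in culture. Of the 9 members, 6 were found in RefSeq's table of promoters (GRCm38.p6), which spans 250 bases before to 50 bases after a gene's start. Where it lists several starts, the one farthest upstream was used. Both strands were searched for the NF-kB consensus, and 8.46% of 32851 promoters of this length held a match. Matches numbered 3 in Nfkb2 (of which 2 overlap), 1 in Nfkbia, 2 in Tnfaip3 and 1 in Bcl3, and 0 in Rela and Birc3. The windows below run from 150 bases before to 20 bases after the start, on the strand of the gene, with bases that match the consensus on either strand in capitals. They are chr19:46304587-46304756 (plus strand), chr12:55492628-55492797 (minus), chr10:19015391-19015560 (minus) and chr7:19822736-19822905 (minus).
Nfkb2: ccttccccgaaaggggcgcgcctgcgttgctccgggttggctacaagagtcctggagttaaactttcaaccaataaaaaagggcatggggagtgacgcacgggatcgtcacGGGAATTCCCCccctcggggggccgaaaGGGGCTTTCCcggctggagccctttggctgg
Nfkbia: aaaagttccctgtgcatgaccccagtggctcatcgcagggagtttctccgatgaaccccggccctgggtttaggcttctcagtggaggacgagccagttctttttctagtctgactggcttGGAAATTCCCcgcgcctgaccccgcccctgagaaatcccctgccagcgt
Tnfaip3: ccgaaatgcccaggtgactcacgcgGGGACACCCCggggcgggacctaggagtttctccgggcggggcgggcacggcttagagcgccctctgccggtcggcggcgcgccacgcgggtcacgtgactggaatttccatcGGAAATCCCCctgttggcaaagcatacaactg
Bcl3: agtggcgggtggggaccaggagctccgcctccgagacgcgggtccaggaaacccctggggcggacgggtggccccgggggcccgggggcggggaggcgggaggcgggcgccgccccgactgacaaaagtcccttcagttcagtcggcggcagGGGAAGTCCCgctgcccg
The match in Bcl3 covers bases 3 to 12 counted from the start used, and the others lie before the start used for their gene. For Nfkb2, Tnfaip3 and Bcl3 that start lies inside the gene span given below, which is from GENCODE and begins farther upstream. No binding was measured, so a match describes the letters only.

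Values are CPM (counts relative to a library's total) scaled by TMM, a normalization that sets the typical gene equal between libraries. A log2 difference is the fitted difference of log2 CPM with its standard error (SE), and an adjusted p is from edgeR's quasi-likelihood test with Benjamini-Hochberg adjustment over 18046 genes, called below 0.05. Total counts were 10184439 to 19483386 per library. Krt8 was at 485 to 5090 CPM in Krt8+/+ and at 21.2 to 47.4 CPM in Krt8-/- libraries. The AEC2 marker Sftpc was at a mean of 187000 CPM on day 0 and 48.8 CPM on day 7 in Krt8+/+ cells. Summed over 12 macrophage markers, the level was 17.6 to 159 CPM when fresh, 57.4 to 476 after 1 day, 35.7 to 262 after 3 days and 9.68 to 270 after 7 days in Krt8+/+ libraries, and isolation 3 was lowest in all 8 groups. The 7 fibroblast markers summed to 295 to 985 CPM when fresh, 139 to 255 after 1 day, 1000 to 1790 after 3 days and 897 to 1910 after 7 days in Krt8+/+ libraries. In Krt8-/- libraries they summed to 331 to 725, 94.7 to 177 and 631 to 1310 CPM on days 0, 1 and 3, and on day 7 isolation 3 stood apart at 3180 CPM, with 955 and 834 in isolations 1 and 2. The fibroblast markers Dcn and Pdgfra did not follow the sum. On days 3 and 7 the sum came mostly from the others, Col1a1, Col1a2, Col3a1, Pdgfrb and Lum, whose single levels are not given here. In Krt8+/+ cells Dcn had means of 211, 57.1, 58.7 and 18.5 CPM on days 0, 1, 3 and 7. Those of Pdgfra were 19.7, 63.5, 50.3 and 29.7 CPM. In Krt8-/- libraries of day 7, Dcn was at 9.27 to 16.2 CPM and Pdgfra at 15.2 to 50.9. Sums were at most 2.86 CPM for 5 neutrophil markers and 30.1 for 6 endothelial markers. Csf3r of neutrophils, Cd3e of T cells and Cdh5 of endothelial cells were at most 1.69 CPM and at 0 in every library of some groups. The part of these cells in the results below was not tested. In isolation 1 the genotypes differed in sex, with Y-linked counts at 173 to 191 CPM in Krt8-/- and at most 0.441 CPM in Krt8+/+ libraries.

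Per kilobase of transcript, which allows levels to be compared between genes, Nfkbia and Rela were the most abundant members in fresh Krt8+/+ cells. The mean level was 51.6 CPM per kilobase for Nfkbia, the inhibitor IkB-alpha, and 44.0 for Rela, the p65 subunit. Birc3, at 21.1, and Bcl3, at 20, came next and did not differ beyond their spread. Nfkb2 followed at 14.6, Nfkb1 at 11.3 and Relb at 8.16 CPM per kilobase, each apart from its neighbours in all 3 libraries. Tnfaip3, at 5.23, and Nfkbiz, at 3.97, were lowest and overlapped. By day 7 the order had changed: Tnfaip3 stood behind Nfkbia and Rela at 46.2 CPM per kilobase, with a range of 30.8 to 58.1 that overlapped Rela at 57.3 and Nfkb2 at 26.9. The highest level was 65.5 for Nfkbia and the lowest were 6.52 for Bcl3, 5.56 for Nfkb1 and 3.11 for Nfkbiz. The order on day 0 was the same in Krt8-/- cells, from 50.2 CPM per kilobase for Nfkbia to 4.58 for Nfkbiz.

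**Figure D1:**
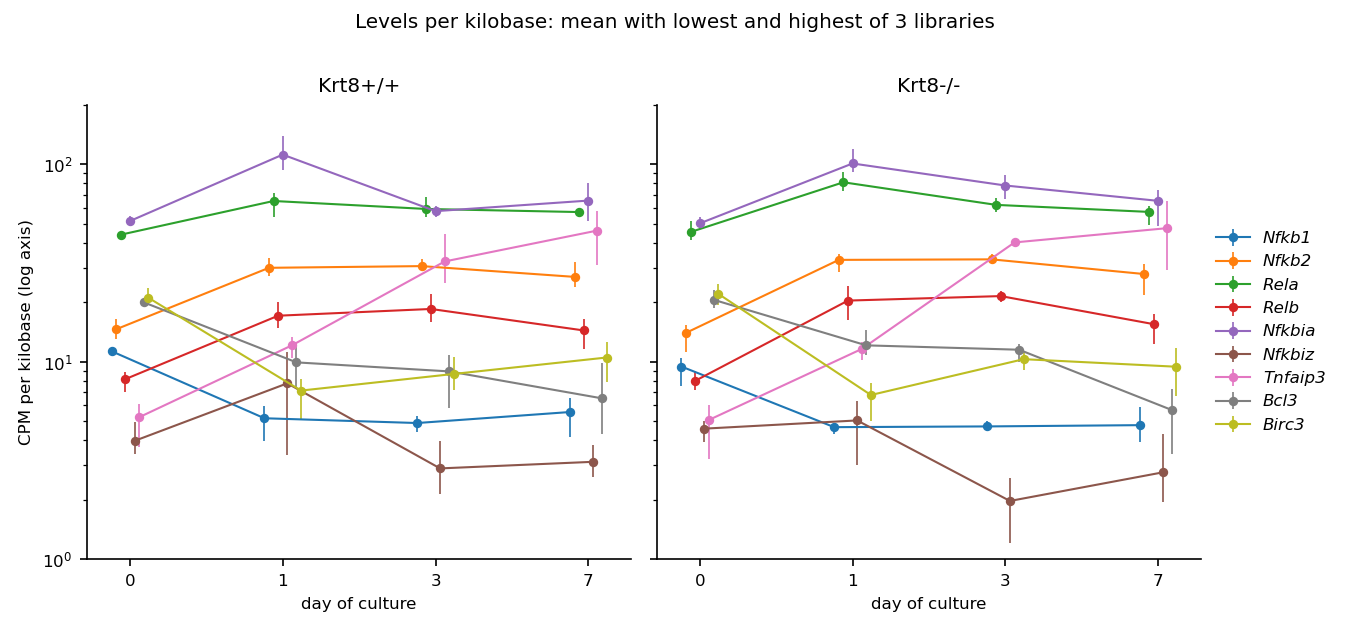
Level of each member in CPM per kilobase (log axis) against the day of culture, in Krt8+/+ (left) and Krt8-/- cells (right). Points are means of 3 libraries and bars run from the lowest to the highest. Tnfaip3 climbed from 5.23 to 46.2 in Krt8+/+ cells, while Nfkb1, Bcl3 and Birc3 ended below their day 0 levels.

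From day 0 to day 1 all 9 members changed in Krt8+/+ cells: Nfkb2, Rela, Relb, Nfkbia, Nfkbiz and Tnfaip3 rose and Nfkb1, Bcl3 and Birc3 fell. Of all genes tested, 54.7% were called in this comparison, 26.2% higher and 28.5% lower. The median log2 difference was 0.97 over the members and 0.0 over all genes. The groups did not overlap for 8 members, and for 55.5% of all genes. On day 3, 7 members were called, 4 higher and 3 lower, against 54.0% of all genes (26.1% higher and 27.8% lower). On day 7 there were again 7, 4 higher and 3 lower, against 58.8% (28.6% and 30.2%). The comparisons with day 0 share the day 0 libraries. Fewer cells of a type and less RNA per cell cannot be told apart in these bulk samples. When libraries were scaled by their totals alone, an alternative chosen after the data were seen, the median log2 difference of all genes moved to 0.46, 0.60 and 0.45 on days 1, 3 and 7, and 7184 genes rose and 3115 fell on day 1, where TMM gave 4730 and 5144. Under this scaling 8 members were called on day 1, 6 higher and 2 lower.

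**Figure D2:**
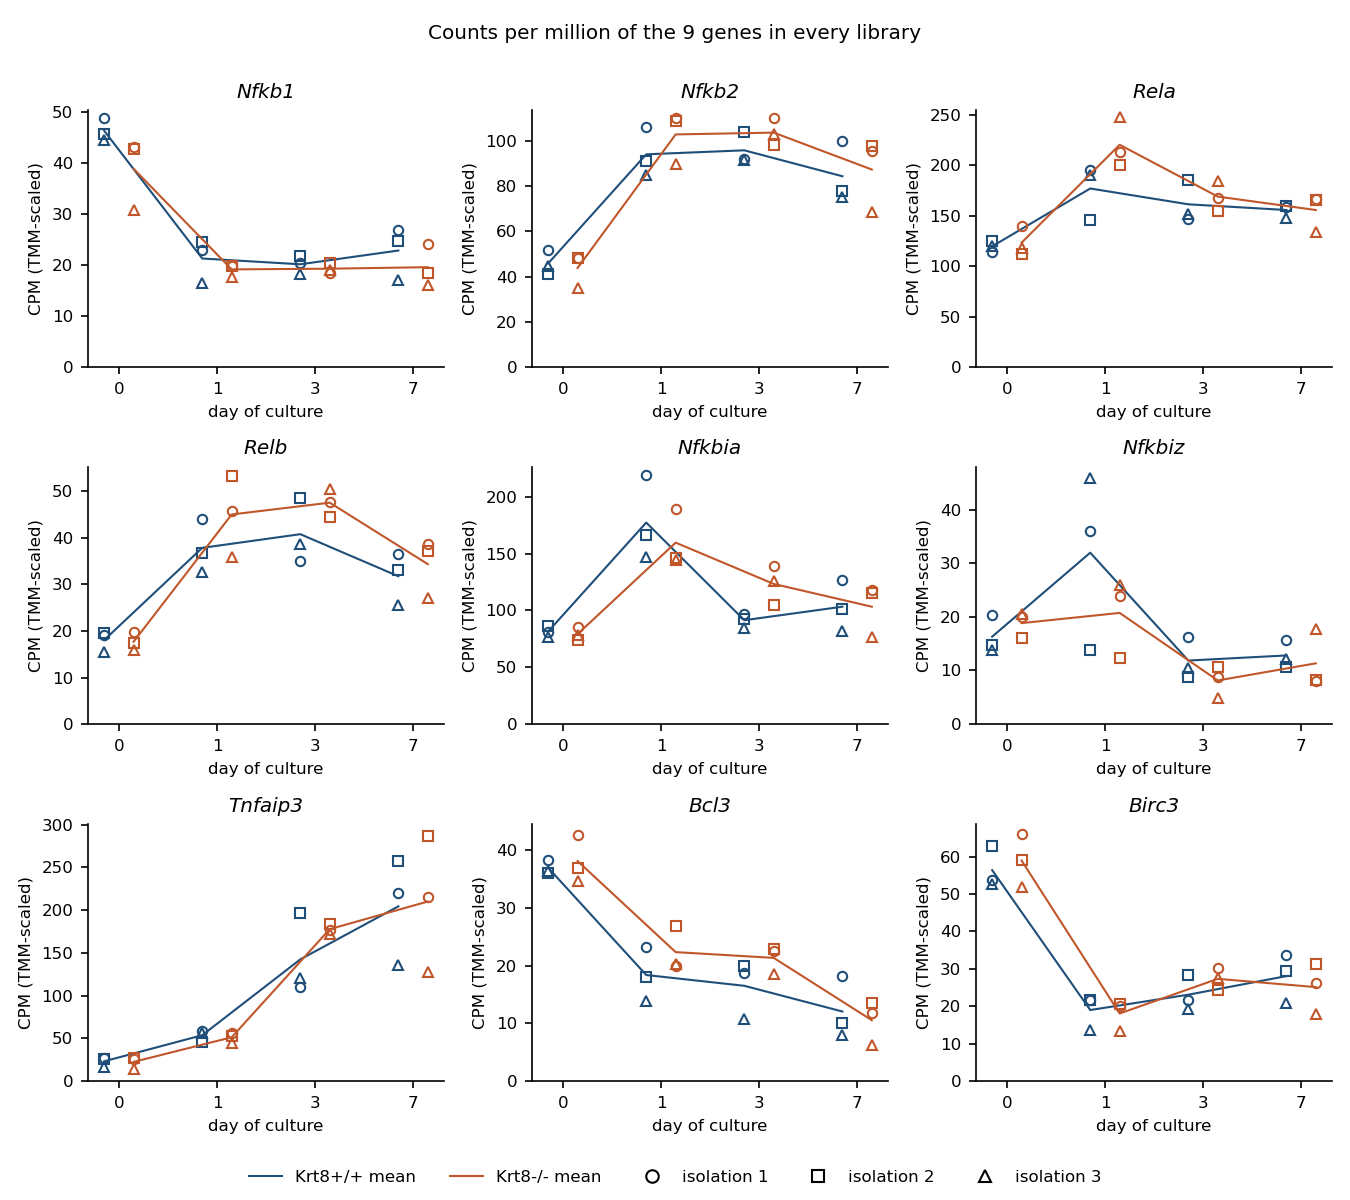
CPM of each member in all 24 libraries against the day of culture; colours mark the genotype, symbols the isolation, and lines join the means of 3 libraries. Tnfaip3 rose 8.81-fold to day 7 in Krt8+/+ cells, Nfkbia peaked on day 1, and the genotypes lay close together for most genes and days.

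Nfkb2 encodes p100, the precursor of the noncanonical subunit p52 (chromosome 19, 46304320 to 46312385, plus strand, GRCm38). In isolations 1, 2 and 3 of Krt8+/+ cells it was at 51.7, 41.2 and 44.7 CPM when fresh, 106, 91.2 and 85.2 after 1 day, 92.0, 104 and 91.7 after 3 days, and 100, 77.9 and 75.4 after 7 days. Every cultured library lay above every fresh one. The log2 difference from day 0 was 1.03 ± 0.16 (SE, adjusted p = 1.68e-05) after 1 day, 1.06 ± 0.16 (1.02e-05) after 3 days and 0.88 ± 0.16 (7.14e-05) after 7 days. Without Krt8 the gene was at 48.1, 48.2 and 35.2 CPM on day 0 and at 110, 109 and 89.8 on day 1, a 2.35-fold rise. Its exons overlap those of Psd, which had 4 to 41 counts in a library where Nfkb2 had 380 to 1683.

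Relb, the partner of p52 (chromosome 7, 19606217 to 19629438, minus strand), rose as well. Its Krt8+/+ values were 19.1, 19.5 and 15.5 CPM when fresh, 44.1, 36.8 and 32.6 after 1 day, 35.0, 48.6 and 38.7 after 3 days, and 36.6, 33.1 and 25.5 after 7 days. All 9 cultured libraries lay above the fresh ones. The mean was 2.10-fold higher on day 1 (log2 difference 1.07 ± 0.19, adjusted p = 7.88e-05), 2.26-fold higher on day 3 and 1.76-fold higher on day 7. The means in Krt8-/- cells were 17.7 CPM when fresh and 45.0, 47.5 and 34.3 CPM after 1, 3 and 7 days. Across the 24 libraries, log2 CPM of Nfkb2 and Relb had a Pearson r of 0.965, which describes points that share groups, isolations and scaling.

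Nfkb1 encodes p105, the precursor of the canonical subunit p50 (chromosome 3, 135584655 to 135691547, minus strand), and it moved the other way. Krt8+/+ libraries had 48.8, 45.7 and 44.6 CPM when fresh, 23.0, 24.5 and 16.4 after 1 day, 20.5, 21.8 and 18.2 after 3 days, and 26.8, 24.8 and 17.0 after 7 days. No cultured library reached the lowest fresh one. The level was 2.18-fold lower on day 1 (log2 difference -1.12 ± 0.19, adjusted p = 4.94e-05), 2.3-fold lower on day 3 and 2.03-fold lower on day 7. Krt8-/- libraries had 43.1, 42.7 and 30.9 CPM on day 0 and 19.9, 19.9 and 17.7 on day 1. Scaled by library totals alone, the fall in Krt8+/+ cells on day 1 was smaller, at -0.64 with adjusted p = 0.0118, the largest adjusted p of 9 alternatives, and the fall in Krt8-/- cells on day 3 was not called (-0.45, adjusted p = 0.0694, also the largest).

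Within a library the ratio of 2 members does not depend on the scaling. The ratio of Nfkb2 to Nfkb1 per kilobase had a median of 1.31 on day 0, with a range of 1.18 to 1.39, and of 6.03 on day 1, with a range of 4.88 to 6.83, in Krt8+/+ cells. It was 4.53-fold higher on day 1, in 3 of 3 isolations, and the median was 6.24 on day 3 and 4.89 on day 7. Its median in Krt8-/- cells went from 1.48 to 7.19 on day 1. The ratio of Relb to Rela in Krt8+/+ cells had a median of 0.192 on day 0 and 0.278 on day 1, a 1.42-fold change in 3 of 3 isolations. Its ranges nearly met, at 0.159 to 0.206 and 0.211 to 0.309. In Krt8-/- cells they overlapped, at 0.165 to 0.191 on day 0 and 0.178 to 0.328 on day 1. An exact 2-sided permutation test of the day 1 ratios against day 0 gave p = 0.1 for both, the smallest that 3 libraries against 3 allow.

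Rela, the subunit that carries most of the activating capacity of canonical dimers (chromosome 19, 5637483 to 5648130, plus strand), had smaller rises in Krt8+/+ cells. It was at 114, 125 and 120 CPM when fresh, 195, 146 and 190 after 1 day, 147, 185 and 152 after 3 days, and 159, 160 and 148 after 7 days. The groups did not overlap on any of these days. The log2 difference was 0.57 ± 0.13 on day 1 (adjusted p = 0.00133), 0.43 ± 0.13 on day 3 (0.00972) and 0.38 ± 0.13 on day 7 (0.0188). Without isolation 1 these calls were lost, with adjusted p of 0.0555, 0.0562 and 0.153, and without isolation 3 that of day 7 was lost (0.0643). Over the alternatives the adjusted p ranged from 3.92e-07 to 0.0555 after 1 day, 2.3e-07 to 0.0562 after 3 days and 3.34e-06 to 0.153 after 7 days. Krt8-/- cells had Rela at 140, 112 and 118 CPM on day 0 and 213, 200 and 248 on day 1, a 1.79-fold rise, and its mean fell from 220 CPM on day 1 to 169 on day 3 (log2 difference -0.38 ± 0.13, adjusted p = 0.0433). That fall was not called without isolation 1 (0.173), isolation 2 (0.0859) or isolation 3 (0.215), nor with library totals alone (0.0701), without the filter on low counts (0.132) or with only the libraries compared (0.0575). It was called in 3 of 9 alternatives, within a range of 0.00903 to 0.215. Against day 0, Rela was called in Krt8-/- cells on day 3 (log2 difference 0.46, adjusted p = 0.00711), but not without isolation 3 (0.12). On day 7 its mean was 156 CPM and the groups overlapped (log2 difference from day 0 of 0.34 ± 0.13, adjusted p = 0.0361), a call made in 4 of 9 alternatives and lost without isolation 1 (0.1), isolation 2 (0.125) and isolation 3 (0.0751), with a range of 1.06e-05 to 0.125 over the alternatives.

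Nfkbia encodes IkB-alpha, the inhibitor that NF-kB itself induces (chromosome 12, 55489410 to 55492647, minus strand). Krt8+/+ cells had it at 81.1, 86.7 and 76.6 CPM when fresh, 219, 166 and 147 after 1 day, 97.1, 92.2 and 84.9 after 3 days, and 127, 101 and 81.9 after 7 days. Day 1 stood above every other day, whereas days 3 and 7 overlapped day 0. It rose 2.18-fold on day 1 (log2 difference 1.12 ± 0.18, adjusted p = 3.3e-05) and fell from day 1 to day 3 by 0.96 ± 0.18 on the log2 scale (adjusted p = 0.000633). On day 3 the log2 difference from day 0 was 0.17 ± 0.18 (adjusted p = 0.459), and with library totals alone it was 0.78 and called (adjusted p = 0.000835, within a range up to 0.655 over the alternatives). On day 7 it was 0.34 ± 0.18 (adjusted p = 0.108), and with the isolation as a block 0.32 (adjusted p = 0.0477) and with library totals alone 0.80 (0.00058), within a range up to 0.495 over the alternatives. The ratio of Nfkbia to Rela per kilobase was 1.19 on day 0, 1.93 on day 1 and 0.958 on day 3 (medians of 3 libraries).

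In Krt8-/- cells, under TMM, Nfkbia was called above day 0 on day 3 as well. It was at 85.0, 74.3 and 78.3 CPM when fresh, 189, 146 and 144 after 1 day, 139, 105 and 126 after 3 days, and 118, 115 and 76.9 after 7 days. The day 3 libraries all lay above the day 0 libraries, and the log2 difference was 0.64 ± 0.18 (adjusted p = 0.00561). From day 1 to day 3 it was -0.37 ± 0.18 (adjusted p = 0.14). The 4 genotype differences of Nfkbia did not pass the test that they change with the day (unadjusted p = 0.141, adjusted p = 1.0). On day 7 the log2 difference from day 0 was 0.38 ± 0.18 (adjusted p = 0.078), with the isolation as a block 0.36 (adjusted p = 0.0274) and without isolation 3 0.54 (0.0365), within a range of 0.000556 to 0.323 over the alternatives.

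Tnfaip3 encodes A20, a ubiquitin-editing enzyme that shuts down signalling to NF-kB (chromosome 10, 19000910 to 19015657, minus strand). It had the largest log2 differences of the 9 members on days 3 and 7. The Krt8+/+ libraries held 27.0, 26.0 and 16.4 CPM when fresh, 58.6, 46.1 and 56.2 after 1 day, 110, 196 and 121 after 3 days, and 220, 257 and 136 after 7 days. Each of days 1, 3 and 7 lay wholly above day 0, and day 3 above day 1. It was 2.31-fold higher on day 1 (log2 difference 1.21 ± 0.30, adjusted p = 0.0019), 6.14-fold on day 3 (2.62 ± 0.31, 5.13e-07) and 8.81-fold on day 7 (3.14 ± 0.31, 4.25e-08). From day 1 to day 3 it rose by 1.41 ± 0.29 on the log2 scale (adjusted p = 0.00139), a call lost without isolation 2 (1.01, adjusted p = 0.056, the largest of 9 alternatives). The Krt8-/- libraries held 26.3, 26.7 and 14.3 CPM when fresh, 55.8, 53.0 and 44.9 after 1 day, 177, 184 and 172 after 3 days, and 215, 287 and 128 after 7 days. The rise to day 7 was 9.37-fold there. Isolation 3 was the lowest of the 3 on day 0 and day 7 in both genotypes.

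Nfkbiz encodes IkB-zeta, a nuclear protein of the inhibitor family that helps activate a set of secondary targets (chromosome 16, 55811375 to 55838899, minus strand). In Krt8+/+ cells its level was 20.3, 14.7 and 13.9 CPM when fresh, 36.1, 13.9 and 45.9 after 1 day, 16.3, 8.75 and 10.5 after 3 days, and 15.6, 10.7 and 12.1 after 7 days. On day 1 isolations 1 and 3 were high and isolation 2 was not, so the groups overlapped. The log2 difference on day 1 was 0.97 ± 0.40 (adjusted p = 0.0453), and the call was lost without isolation 1 (1.06, adjusted p = 0.134) and without isolation 3 (0.51, adjusted p = 0.363), within a range of 0.00434 to 0.363 over the alternatives. From day 1 to day 3 it fell by 1.43 ± 0.40 on the log2 scale (adjusted p = 0.0121), which was also not called without isolation 1 (0.06) or isolation 3 (0.156). The summed macrophage markers on day 1 were 476, 305 and 57.4 CPM in isolations 1, 2 and 3 of Krt8+/+ cells. Krt8-/- cells had Nfkbiz at 19.9, 16.1 and 20.5 CPM when fresh, 23.9, 12.3 and 26.0 after 1 day, 8.77, 10.7 and 4.93 after 3 days, and 8.01, 8.18 and 17.8 after 7 days. The library at 17.8 is the one with 3180 CPM summed over the fibroblast markers. Of these, Dcn was at most 16.2 CPM and Pdgfra at most 50.9 CPM in the Krt8-/- libraries of day 7. Most of the 3180 CPM thus came from the other fibroblast markers, which are not given singly. The part of fibroblasts was not tested. Isolation 2 was again the lowest on day 1. The fall from day 0 to day 3 was called (log2 difference -1.21 ± 0.41, adjusted p = 0.0164), but not without isolation 1 (0.0977), without isolation 3 (0.13) or with library totals alone (0.154), within a range from 0.00567 over the alternatives. In Krt8+/+ cells the log2 differences from day 0 were -0.47 on day 3 and -0.36 on day 7, neither called, and with library totals alone they turned to 0.14 and 0.09.

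Bcl3, another nuclear IkB protein, which binds p50 and p52 dimers (chromosome 7, 19808462 to 19822770, minus strand), fell. Fresh and cultured Krt8+/+ cells had 38.3, 36.1 and 36.4 CPM when fresh, 23.3, 18.0 and 13.8 after 1 day, 18.8, 20 and 10.7 after 3 days, and 18.2, 10 and 7.95 after 7 days. Every cultured library lay below the fresh ones. It was 2.01-fold lower on day 1 (log2 difference -1.01 ± 0.29, adjusted p = 0.0065), 2.24-fold on day 3 (-1.16 ± 0.29, 0.00223) and 3.06-fold on day 7 (-1.61 ± 0.30, 9.98e-05). With library totals alone the log2 differences were -0.54 on day 1 (adjusted p = 0.128, the largest of 9 alternatives), -0.56 on day 3 (0.11, also the largest) and -1.16 on day 7 (0.00244). Without isolation 2 the day 1 call was lost too (0.0877). Krt8-/- cells averaged 38.1 CPM when fresh and 22.4, 21.4 and 10.5 CPM after 1, 3 and 7 days. The fall there from day 3 to day 7 was called (log2 difference -1.02 ± 0.30, adjusted p = 0.0296), against 10.5% of all genes, but not without isolation 1 (0.121), isolation 2 (0.133) or isolation 3 (0.0865), within a range of 0.0036 to 0.133 over the alternatives. The falls in Krt8-/- cells on day 1 (-0.77, adjusted p = 0.0336) and day 3 (-0.83, 0.0208) were lost with library totals alone (0.469 and 0.445), without isolation 1 (0.185 and 0.0892) and without isolation 2 (0.124 in both).

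Birc3 encodes cIAP2, a ubiquitin ligase of the TNF receptor complex that also restrains the noncanonical arm (chromosome 9, 7848699 to 7873186, minus strand), and it had the largest fall on day 1. In Krt8+/+ cells the level was 53.7, 62.9 and 52.6 CPM when fresh, 21.8, 21.6 and 13.6 after 1 day, 21.8, 28.3 and 19.2 after 3 days, and 33.7, 29.5 and 21.0 after 7 days. All cultured libraries lay below the fresh ones. It was 2.96-fold lower on day 1 (log2 difference -1.57 ± 0.24, adjusted p = 1.35e-05), 2.44-fold on day 3 (-1.29 ± 0.23, 9.22e-05) and 2.01-fold on day 7 (-1.01 ± 0.23, 0.00085). With library totals alone the day 7 difference was -0.55 (adjusted p = 0.0523, the largest of 9 alternatives). Its means in Krt8-/- cells were 59.0, 18.1, 27.3 and 25.2 CPM on days 0, 1, 3 and 7. The day 3 fall there was not called with library totals alone (-0.55, adjusted p = 0.0568). From day 1 to day 3 in Krt8-/- cells the log2 difference was 0.60 ± 0.23 (adjusted p = 0.0687) and, with the isolation as a block, 0.63 (adjusted p = 0.00872), within a range up to 0.25 over the alternatives. Of the 50-base stretches of Birc3 transcripts, 11.4% also occur in other genes, mainly Gm7019, Birc2 and Gm43393, so its level is less certain.

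**Figure D3:**
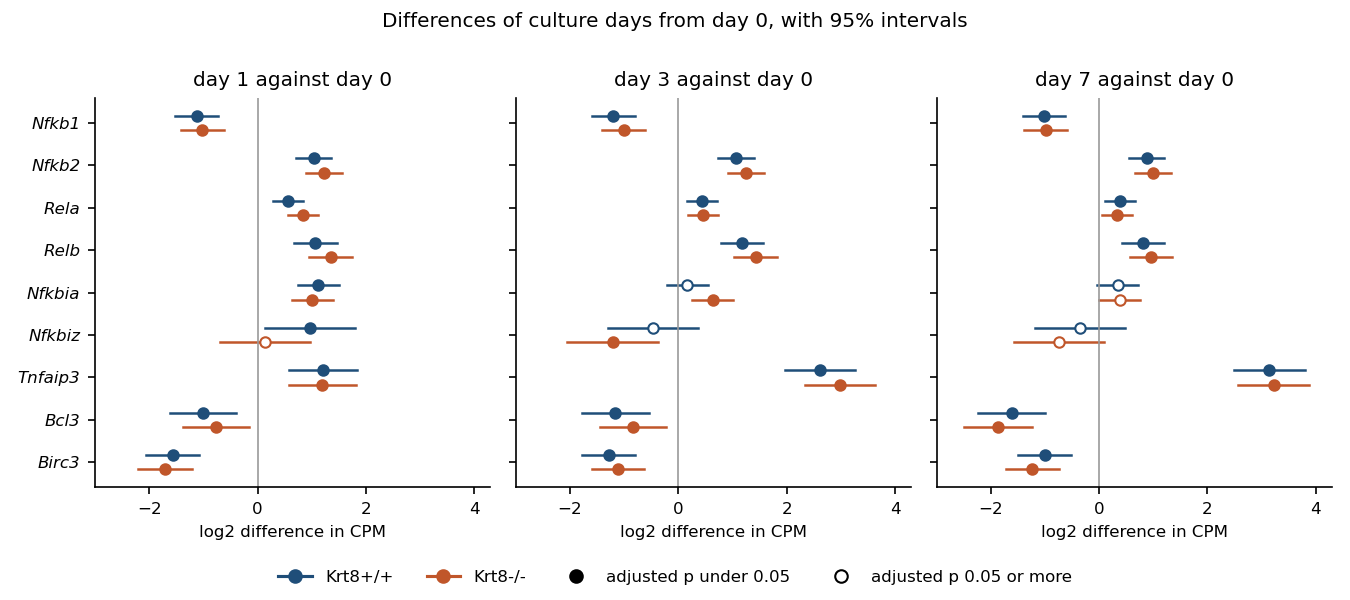
Fitted log2 difference in CPM of day 1, day 3 and day 7 from day 0 for each member, in Krt8+/+ and Krt8-/- cells. Bars are 95% intervals and filled points have an adjusted p under 0.05; the intervals of the genotypes overlap for every gene and day, and Tnfaip3 reached 3.14 and 3.23 on day 7.

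Consecutive culture days were compared next. From day 1 to day 3, 3 of 9 were called in Krt8+/+ cells, Tnfaip3 higher and Nfkbia and Nfkbiz lower, where 26.3% of all genes were called, 14.4% higher and 11.9% lower. Also 3 were called in Krt8-/- cells, Tnfaip3 higher and Rela and Nfkbiz lower, against 23.6% (13.4% higher and 10.2% lower). The Nfkbiz call there (log2 difference -1.35, adjusted p = 0.0205) was lost without isolation 1 (-1.29, 0.153) and without isolation 3 (-0.89, 0.221), within a range of 0.0044 to 0.221 over the alternatives. From day 3 to day 7, 0 members were called in Krt8+/+ cells, against 6.58% of all genes. By edgeR 0 had an unadjusted p under 0.05 there, and by DESeq2 0 did and 0 were called. In Krt8-/- cells 1 member, Bcl3, was called lower, where 10.5% of all genes were called in either direction, and Relb had a log2 difference of -0.47 ± 0.18 (adjusted p = 0.113), with the isolation as a block -0.49 (adjusted p = 0.0361, within a range up to 0.495 over the alternatives).

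In Krt8-/- cells 8 members were called on day 1 against day 0, 5 higher and 3 lower, where 50.6% of all genes were called, 23.7% higher and 26.9% lower. On day 3 all 9 were called, 5 higher and 4 lower, against 52.0% of all genes (25.4% higher and 26.6% lower). On day 7 there were 7, 4 higher, with Rela among them, and 3 lower, against 58.5% (28.6% and 29.9%). Nfkbiz was the member not called on day 1, with a log2 difference of 0.14 ± 0.40 (adjusted p = 0.794). With library totals alone the count on day 3 was 5, all higher.

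The study asked what keratin 8 does in these cells, and for that the genotypes were compared on each day. No member was called on day 0, 1, 3 or 7, nor over days 1 to 7 weighted by the time they span. Of all genes, 0.0277% were called on day 0, 0.0166% on each of the other days and 0.0277% over days 1 to 7. With edgeR 0 of 9 members had an unadjusted p under 0.05 on days 0 and 7 and 1 did on each of days 1 and 3, and DESeq2 gave the same counts and called 0. Leaving out isolation 1, in which sex-linked genes differed between genotypes, also left 0 called.

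The 2 members with an unadjusted p under 0.05 were Rela on day 1 and Nfkbia on day 3. Rela on day 1 was at 213, 200 and 248 CPM in Krt8-/- and at 195, 146 and 190 in Krt8+/+ cells, a log2 difference of 0.31 with a 95% interval of 0.037 to 0.593 (unadjusted p = 0.0283, adjusted p = 1.0). It was higher in 3 of 3 isolations, and the groups did not overlap. Nfkbia on day 3 was at 139, 105 and 126 CPM in Krt8-/- and at 97.1, 92.2 and 84.9 in Krt8+/+ cells, a log2 difference of 0.43 with an interval of 0.057 to 0.808 (unadjusted p = 0.0261, adjusted p = 1.0). It too was higher in 3 of 3 isolations without overlap. On each of days 0, 1 and 3 the groups of 1 member did not overlap, Nfkb1 on day 0, Rela on day 1 and Nfkbia on day 3, where 6.88%, 5.79% and 11.0% of all genes did not.

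For the other members the intervals show what size of difference remained possible. Over days 1 to 7 the log2 difference of Krt8-/- from Krt8+/+ cells was 0.10 (95% interval -0.107 to 0.297) for Nfkb2, 0.19 (-0.046 to 0.428) for Relb and -0.13 (-0.372 to 0.117) for Nfkb1. It was 0.16 (-0.21 to 0.532) for Tnfaip3, 0.17 (-0.214 to 0.548) for Bcl3 and 0.06 (-0.243 to 0.356) for Birc3. Nfkbiz had the widest interval, at -0.43 (-0.955 to 0.088), and its isolations differed, with -0.86, -0.02 and -0.49 in isolations 1, 2 and 3. Each of these had an adjusted p of 1.0. In the test of whether the genotype difference changes with the day, 0 members were called, where 0.00554% of all genes were; the smallest unadjusted p was 0.141, and DESeq2 called 0 with 0 under an unadjusted p of 0.05.

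**Figure D4:**
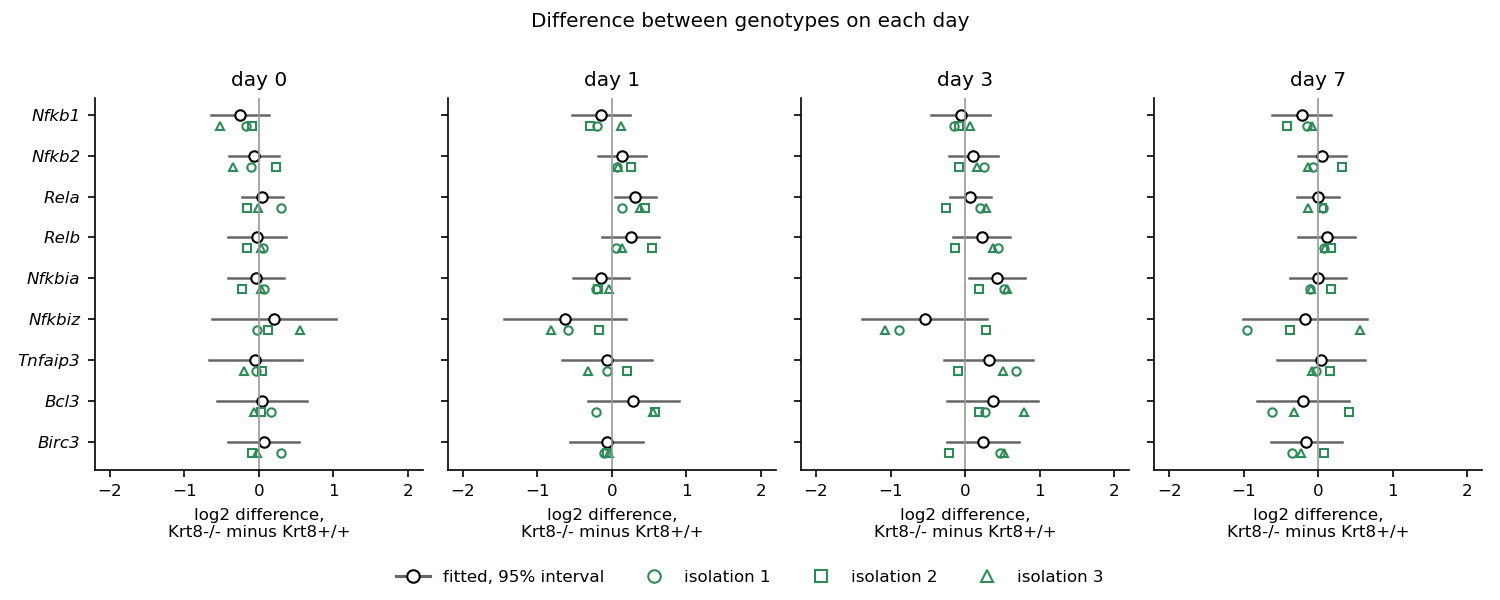
Log2 difference of Krt8-/- minus Krt8+/+ cells for each member on days 0, 1, 3 and 7. Open circles with bars are fitted differences with 95% intervals, and green symbols are the 3 isolations; the intervals leave 0 only for Rela on day 1 (0.31) and Nfkbia on day 3 (0.43), neither of them called.

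Genes that lie before, beside and after these members in the pathway were counted from 3 lists. Of 39 receptors and signalling proteins, 9 rose and 14 fell in Krt8+/+ cells on day 1, with a median log2 difference of -0.14, 13 rose and 13 fell on day 3, and 10 rose and 12 fell on day 7. Of all genes, 26.2% rose and 28.5% fell on day 1, 26.1% and 27.8% on day 3, and 28.6% and 30.2% on day 7. The balance of this list turned with library totals alone, which gave 18 higher and 7 lower on day 1 with a median of 0.36, 22 and 3 on day 3, and 17 and 7 on day 7. The 3 with the largest differences among those called on day 1 were Traf1, Cd40 and Irak3. Traf1, an adaptor of TNF receptors, fell from 90.0 ± 9.25 CPM (SD, n = 3) to 12.9 ± 5.64 on day 1 and 4.66 ± 3.55 on day 7. Cd40, a receptor of the noncanonical arm, was at 0.652 ± 1.03 CPM on day 0, 5.0 ± 2.36 on day 1 (adjusted p = 0.00734) and 17.3 ± 6.14 on day 7. Without isolation 2 the day 1 call for Cd40 was lost (adjusted p = 0.088, the largest of 9 alternatives). Irak3, an inhibitor of IL-1 and Toll-like receptor signalling, rose from 0.831 ± 0.492 to 5.12 ± 1.29 CPM on day 1.

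Of 16 other subunits, IkB proteins and brakes, 6 rose and 2 fell on day 1, with a median log2 difference of 0.43, 6 rose and 1 fell on day 3, and 7 rose and 1 fell on day 7, beside the same shares of all genes (26.2% higher and 28.5% lower on day 1). Library totals alone gave 13 higher and 0 lower on day 1 with a median of 0.89, 11 and 0 on day 3, and 10 and 1 on day 7. Tnip3, a partner of A20, rose from 4.39 ± 1.31 CPM (SD, n = 3) to 127 ± 46.2 on day 1 and 162 ± 10 on day 3, and was at 29.4 ± 8.59 on day 7. Tnfaip2, which TNF induces, rose from 3.36 ± 1.42 to 30.5 ± 22.1 CPM on day 1. Nfkbie, the inhibitor IkB-epsilon, rose from 4.55 ± 0.193 to 13.0 ± 0.899 CPM on day 1 and was at 30.6 ± 7.88 on day 7.

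Of 50 target genes, 23 rose and 15 fell on day 1, with a median log2 difference of 0.65, against 26.2% and 28.5% of all genes. On day 3, 19 rose and 15 fell with a median of 0.0001, and on day 7, 21 rose and 12 fell. Library totals alone gave 25 higher and 7 lower with a median of 1.11 on day 1, 22 and 10 with a median of 0.59 on day 3, and 27 and 11 on day 7. The largest differences called were those of the chemokines Ccl2 and Ccl7 and of the cytokine Tnf. Ccl2 rose from 0.312 ± 0.283 CPM (SD, n = 3) to 68.8 ± 13.3 on day 1 and was at 17.5 ± 5.92 on day 7. Ccl7 rose from 0.412 ± 0.36 to 36.7 ± 9.78 CPM on day 1. Tnf had a single library above 0 on day 0, at 0.191 CPM, and was at 1.02 to 12.7 CPM on day 1. Macrophages also express these genes, and the summed macrophage markers were at a mean of 83.4 CPM on day 0 and 280.0 CPM on day 1. Their part was not tested. Between genotypes 0 genes of the 3 lists were called on any day by edgeR or DESeq2. On day 1 Ccl2 was at 26.9 to 41.8 CPM in Krt8-/- and at 53.7 to 78.8 CPM in Krt8+/+ libraries, without overlap and lower in 3 of 3 isolations (log2 difference -0.99, 95% interval -2.046 to 0.072, unadjusted p = 0.0661, adjusted p = 1.0). The groups of Ccl7 did not overlap either, with a log2 difference of -0.97 (-2.21 to 0.277, unadjusted p = 0.121, adjusted p = 1.0), where 5.79% of all genes did not overlap. Tnf overlapped, at -0.57 (-2.297 to 1.164). The summed macrophage markers on day 1 were at a mean of 190.0 CPM in Krt8-/- and 280.0 CPM in Krt8+/+ libraries, and their part was not tested. By edgeR at most 2 of a list had an unadjusted p under 0.05 on any day, and by DESeq2 at most 5.

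**Figure D5:**
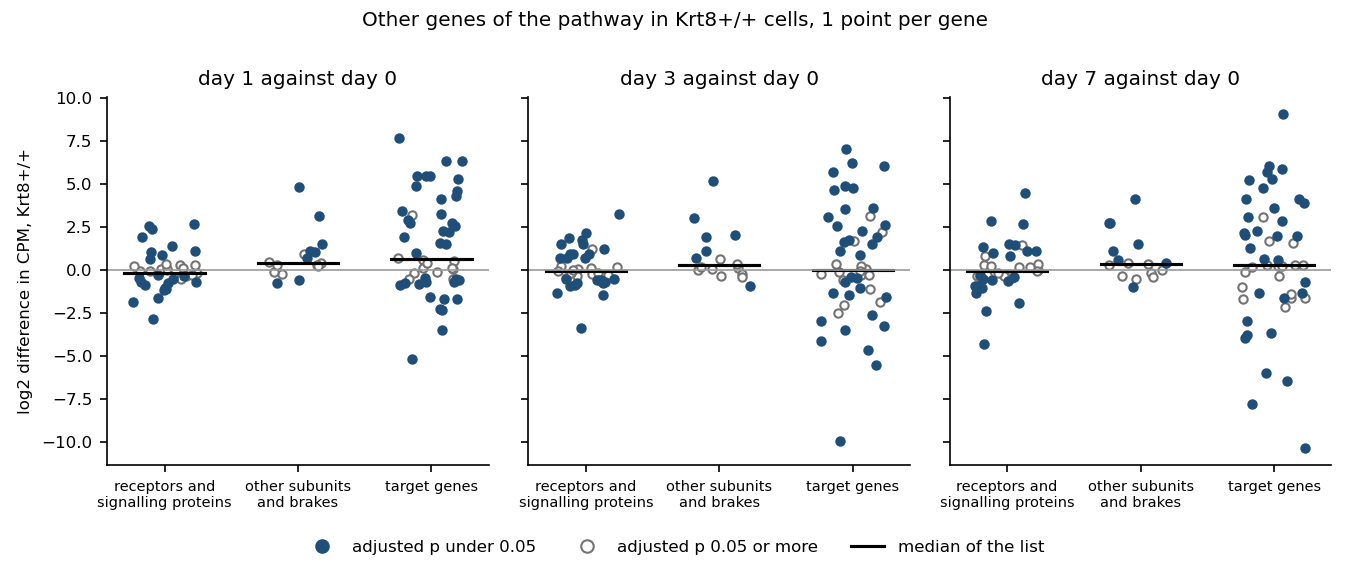
Log2 difference of day 1, day 3 and day 7 from day 0 in Krt8+/+ cells for 39 receptors and signalling proteins, 16 other subunits and brakes, and 50 target genes, 1 point per gene. Filled points have an adjusted p under 0.05 and the bar is the median, which was -0.14, 0.43 and 0.65 on day 1.

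Over the 24 libraries, the genes with a course most like that of each member were taken by Pearson r of log2 CPM, as a description. Relb was second for Nfkb2 and Nfkb2 first for Relb, at 0.965, and Sema3c was nearest to Nfkb2 at 0.975. Tnfaip3 was nearest to Endod1 and Fblim1, both at 0.979, and to Fn1 at 0.977. Nfkb1 was nearest to Rnf8 (0.944), Bcl3 to Il13ra1 (0.954) and Birc3 to Casp6 (0.957). Nfkbia was nearest to Pttg1ip (0.942), Rela to Fam83g (0.908) and Nfkbiz to Nfyc (0.867). Among the members, Nfkb1 and Birc3 had an r of 0.9, and Nfkb1 and Nfkb2 had the lowest, at -0.775. The libraries share groups, isolations and scaling, so these values carry no p.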

How the data were processed

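The authors deposited 1 table of raw counts per gene for 24 libraries, which lists 55421 Ensembl identifiers and, among its 55426 entries, 5 reporter genes that have no count (0 in every library). The values are whole numbers. The submitters' processing notes name cutadapt 2.3, STAR 2.7.8a, RSEM 1.3.3 and the build GRCm38 without roles, so the counts may be rounded RSEM estimates, in which reads shared between genes are split. No source used here gives the annotation or the strand setting. Symbols and gene models were those of GENCODE M21 (GRCm38), which matched 55240 identifiers, and 181 were not matched. Entries without a symbol held at most 0.0122% of a library. The single-cell and tissue data of the study were not analysed here, and 1 list of cell markers is not reported here.

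Totals were 10184439 to 19483386 counts per library, and the members' 70 to 3752 counts in a library limit the precision of each value. No 2 libraries of a group were identical (24 pairs). The filter was filterByExpr with a min.count of 10 and a min.total.count of 15, and 18046 genes passed it and were scaled with TMM. A quasi-likelihood model of 8 groups with 16 residual degrees of freedom was fitted with edgeR 4.0.16 (R 4.3.3), and p values were adjusted by Benjamini-Hochberg at 0.05. Each culture day was compared with day 0 and with the day before within a genotype, and Krt8-/- with Krt8+/+ cells on each day and over days 1 to 7 with weights of 0.167, 0.5 and 0.333. Levels per kilobase used the longest APPRIS principal transcript. Correlations were of log2 CPM with 2 as the prior count. The fit was tested on simulated data. Tables were made in Python 3.11.15 with pandas 2.3.3 and numpy 2.4.6.

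The labels give both genotypes and all days the same 3 dates without saying what they mark. They were read as dates of cell isolation, so that replicate numbers pair the libraries. The correlation across genes of same-numbered libraries' deviations from their group means was 0.0573 to 0.548 between genotypes (10 of 12 pairs over 0.1) and 0.0406 to 0.365 between a culture day and day 0 in Krt8+/+ cells (7 of 9 pairs). The isolation entered as a block in an alternative. The other settings tried were the test and, separately, the size factors of DESeq2 1.42.0, no filter, each isolation left out, and a fit of only the libraries compared. Scaling by library totals alone was added after the data were seen. The members and the lists were chosen with earlier results of these data known. All 9 members are named, and of each list the 3 genes with the largest absolute log2 difference among those called in Krt8+/+ cells on day 1.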

Additional observations from a re-analysis of the deposited data

How the results depend on the processing

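Of 54 differences of a culture day from day 0 (9 members, 3 days, both genotypes), all 54 kept their direction and their side of the threshold with DESeq2's size factors and with the DESeq2 test. Without the filter on low counts, and with only the libraries compared, 53 kept their side and 1, Rela in Krt8-/- cells on day 7, was lost. Without isolation 1, 2 or 3, all 54 kept their direction, and 46, 50 and 48 kept their side. With library totals only, 52 kept their direction and 43 their side, with 8 calls lost and 3 gained, and Nfkbiz in Krt8+/+ cells turned to 0.1419 on day 3 and 0.0926 on day 7. That scaling gave 5 called members in Krt8-/- cells on day 3, where TMM gave 9, and 2 from day 3 to day 7, where TMM gave 1. That scaling moved the median of all genes upward on every culture day, as given with the first comparison. With the isolation as a block, which pairs the libraries, the count from day 3 to day 7 in Krt8-/- cells was 2, and the only calls that changed were the 4 gained that are given beside Nfkbia, Birc3 and Relb. Leaving out 1 isolation gave 1 to 2 called members from day 1 to day 3 in Krt8-/- cells, where all libraries gave 3, and 0 from day 3 to day 7, where they gave 1; with fewer libraries, fewer calls are possible. Without isolation 3 the weighted genotype difference of Birc3, 0.0562 and not called, turned to -0.0008, and it was up to 0.1191 without another. The 0 called members between genotypes, and in the test by day, stayed 0 in every alternative run. The ratio of Nfkb2 to Nfkb1 on day 1 kept its direction without each isolation. With 3 libraries a group, an exact test of a ratio cannot go below 0.1 (0.25 for the 3 pairs). The intervals between genotypes give the differences that remain possible. The smallest difference that would be called was not computed for the members.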
